A study of Mus musculus with 49 samples.

Results

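The insertions described here are the single genomic copies of the internal region of MERVL, an endogenous retrovirus of the ERVL class, that were transcribed in late 2-cell mouse embryos. They were chosen by name and by detection: every insertion row whose name starts with MERVL and that held a minimum of 1 read in 25% or more of the TBP embryos analysed, with no use of the difference between groups. This rule kept 1114 of 6817 annotated MERVL insertions, of which 1046 belong to the consensus MERVL-int and 68 to the related consensus MERVL_2A-int, among 40760 transposable element (TE) insertions passing the same filter. The study removed proteins from embryos by Trim-Away, in which an injected antibody binds its protein and TRIM21, an antibody receptor and ubiquitin ligase supplied as mRNA, directs the complex to degradation. All embryos were F1 (C57BL/6JxCBA/H). Zygotes received an antibody, then mCherry-Trim21 mRNA 4 h later, and were collected at 48 h post-hCG, each embryo being 1 library. The Tbp LOF embryos (9 libraries) received an antibody against TBP, the TATA-binding protein of the general transcription machinery, and the mIGG CONTROL embryos (10 libraries) received mouse IgG. Both groups carried the Trim21 mRNA. FOXJ3 LOF embryos and their rabbit IgG CONTROL embryos, handled in the same way in 2 library batches, provide family counts of MERVL but no counts for single insertions here. The treatment acts on protein from the zygote stage onwards, when maternal transcripts are present, and no protein level was measured in these libraries.

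MERVL copies descend from a retrovirus, with an LTR named MT2_Mm that acts as promoter and an internal region with gag- and pol-related sequence. In mouse embryos, MT2_Mm and MERVL are switched on together during genome activation and peak at the 2-cell stage, and MT2_Mm LTRs also serve as promoters of many 2-cell genes. Transcription factors such as DUX and OBOX activate MERVL, whereas KAP1 (Trim28), the histone demethylase LSD1 (Kdm1a), histone methyltransferases, the chromatin assembly factor CAF-1 and variant Polycomb complexes repress it.

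The sequences that identify this internal region in a transcript are the sites of the study's primers, and 2 annotated transcripts that carry them show the 5′ structure of a MERVL transcript. Capital letters mark the primer sites, all 3 sequences are on the minus strand of GRCm38, and they are read 5′ to 3′ from gencode M21 transcripts. The first is the stretch between the pol primers, in the last exon of the lincRNA Gm48422, at chr12:64149625-64149707.
MERVL pol site in Gm48422: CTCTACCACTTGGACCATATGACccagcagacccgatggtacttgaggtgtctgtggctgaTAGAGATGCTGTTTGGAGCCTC
The second is the whole first exon of the same transcript, at chr12:64152834-64152948. Its capitals mark the complement of the study's reverse primer for the LTR MT2_Mm, which starts at base 64 of the transcript.
First exon of Gm48422: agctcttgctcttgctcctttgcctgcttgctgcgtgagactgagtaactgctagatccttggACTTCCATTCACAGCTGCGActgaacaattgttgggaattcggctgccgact
The third is the stretch between the gag primers in the processed transcript Gm47808, at chr12:11511210-11511450.
MERVL gag site in Gm47808: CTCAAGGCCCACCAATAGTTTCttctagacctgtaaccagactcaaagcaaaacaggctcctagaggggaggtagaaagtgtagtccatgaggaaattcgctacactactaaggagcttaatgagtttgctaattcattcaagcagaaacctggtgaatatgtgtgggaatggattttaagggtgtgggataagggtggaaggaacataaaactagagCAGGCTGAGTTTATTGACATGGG
Gm48422 is annotated at chr12:64147856-64152948 on the minus strand. Its first exon of 115 bases, with the LTR primer site, is joined across an intron of 2387 bases to a second exon of 2591 bases, which holds the pol site. Among 141767 annotated transcripts searched, 16 genes held the pol site and 3 the gag site in sense, 18 genes in all. The pol site was 83 bases long in all 16 transcripts that held it, in 3 different sequences, and the most common one was shared by 9 transcripts. The gag site was 241 bases long. The LTR primer site was present in 13 of the 19 transcripts with an internal site, and all 16 transcripts with the pol site had 2 exons. Positions and sequences of the single insertions are not given here, because their annotation was not used.

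Sequencing depth was high for single embryos but uneven. Counted reads ranged from 1295251 to 4166903 in the 9 Tbp LOF embryos and from 1160150 to 5434808 in the 9 CONTROL embryos kept, with 1 CONTROL embryo under 500000 reads left out. Counts were scaled by 42 ERCC spike-ins, RNAs added in equal amount to each lysate, so that a normalised count follows the amount of RNA in the embryo. Tbp mRNA was lower in LOF, at 6.59 to 151 normalised counts (median 83.3) against 195 to 672 (median 280) in CONTROL, a log2 fold change of -2.14 (standard error 0.37, edgeR adjusted p = 5.28e-06). This is a measure of the mRNA, whereas the treatment acts on the protein. The mCherry-Trim21 construct, which both groups received, stood at medians of 1462 and 1715 (log2 fold change 0.11, adjusted p = 0.867). Of the 10 late 2-cell marker genes all were tested, none was lower and 2 were higher in LOF (Tcstv3 and Gm8300, named as those called), beside 29.7% lower and 1.34% higher among all genes and TE families. With TMM scaling, which sets the bulk of features equal between embryos, 5 of the 10 were higher and none lower, beside 12.8% higher and 12.7% lower among all genes and families. Of 7 oocyte and zygote genes, all tested, 1 was lower and none higher, and with TMM scaling 1 was lower and 6 higher, beside the same shares. In the study's principal component analysis, TBP-depleted embryos lay towards earlier stages than CONTROL embryos. A difference in stage was not tested here. Of 8 cumulus and granulosa markers Fshr, Inha, Has2 and Ptx3 had no read in any embryo. The summed level of the 8 was 0 to 13.8 in LOF and 0 to 47.2 in CONTROL, and of the 3 tested Tnfaip6 was lower in LOF (log2 fold change -2.46, adjusted p = 0.00866), while Foxl2 and Cyp19a1 had 2.03 and 0.52 and did not pass (adjusted p = 0.157 and 0.773). With TMM scaling Foxl2, with 13 reads in all, was higher (2.77, adjusted p = 0.0409) and Tnfaip6 did not pass (-1.68, adjusted p = 0.101). Each library is the RNA of a whole late 2-cell embryo, so differences between its cells cannot be seen.

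As counted, MERVL reads were spread over many copies. The sources used here do not state how reads matching several copies were shared between them. The part of that sharing in the spread and ranking of copies was not tested. Mean reads per embryo had a median of 6.36 over the 1114 insertions (quartiles 1.89 and 16.4) and reached 237. The first-ranked insertion, MERVL-int_dup2318, held 1.56% of the normalised reads on the 1114 insertions, the 10 highest held 9.12% and the 100 highest 41.7%. All of these 100 were MERVL-int. It took 139 insertions to reach 50% and 541 to reach 90% of these reads. A read was present in every one of the 18 embryos for 413 insertions. The annotated MERVL-int copies were detected more often, with 39.0% of 2685 copies kept, than the MERVL_2A-int copies, with 1.65% of 4132, and MERVL-int held 98.1% of the reads on the kept insertions. Just inside the detection rule, 49 insertions had a read in exactly 5 embryos, with a median of 0.389 mean reads, and just outside it 73 had a read in 4 embryos, with a median of 0.278. The kept insertions accounted for 99.2% of all reads on MERVL insertions. Summed over all MERVL insertions with a read, counts were 1.04% to 5.45% below the family counts of the same embryo, and 4 insertions had counts identical to those of another insertion in every embryo. The ranking of copies was similar in both groups: 84 of the 100 highest in CONTROL were also among the 100 highest in LOF, as were 7 of the 10 highest, and mean normalised counts correlated over the 1114 insertions with a Spearman rho of 0.945, a description over copies that share libraries and reads. Counts are of reads and are not divided by the length of the copy, so they give shares of reads and not levels per length.

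The question for these copies was whether removal of TBP changed their transcription. Summed over the 1114 insertions, the normalised count ranged from 4208 to 32221 (median 8981) in Tbp LOF embryos and from 12400 to 20281 (median 14118) in CONTROL embryos. The LOF embryos lay on both sides of the CONTROL embryos: 5 were below the lowest CONTROL embryo, 2 were above the highest and 2 lay between. Counted as RPM (reads per 1000000 counted reads), which ignores the spike-ins, the LOF embryos were again on both sides, with 4 below and 4 above the CONTROL range of 5876 to 8648. The family count of MERVL-int, which holds all its reads however they are shared between copies, gave a log2 fold change of -0.13 (standard error 0.34, edgeR adjusted p = 0.826, n = 9 and 9). MERVL_2A-int gave -0.47 (standard error 0.32, adjusted p = 0.278). Neither passed the test, and of the 19357 genes and TE families in that test 29.7% were called lower and 1.34% higher. With 1 embryo left out they ranged from -0.39 to -0.012 for MERVL-int and from -0.73 to -0.34 for MERVL_2A-int, the lowest value of each being without LOF embryo 8 (adjusted p = 0.411 and 0.0644) and the highest without LOF embryo 11, and none passed. With TMM scaling the direction turned, to 0.58 (adjusted p = 0.104) for MERVL-int and 0.21 (adjusted p = 0.525) for MERVL_2A-int. The change of scaling moved the median feature by 0.83 on the log2 scale, so the sign of a MERVL change depends on the scale, and neither scale gave a call.

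**Figure D1:**
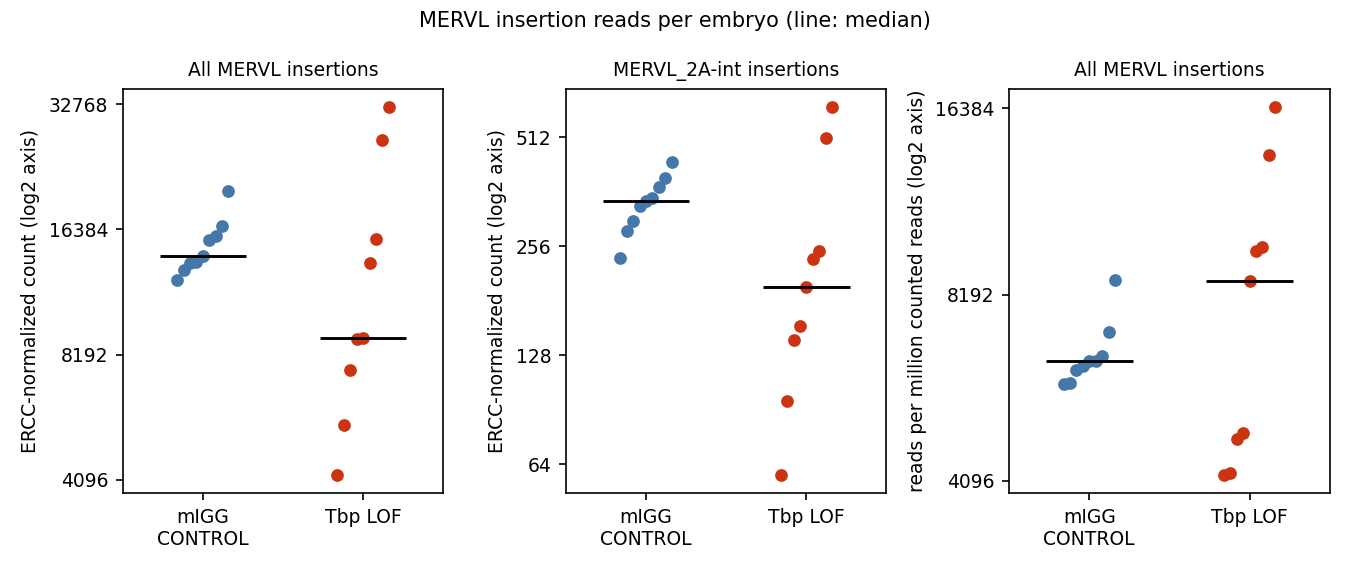
Reads on the MERVL insertions in each embryo, as ERCC-normalised counts of all 1114 insertions (left) and of the 68 MERVL_2A-int insertions (middle), and as RPM of all insertions (right), on log2 axes. Each point is 1 embryo (9 mIGG CONTROL, 9 Tbp LOF) and the line is the median, and the LOF embryos, at 4208 to 32221 in the left panel, spread over both sides of the CONTROL embryos at 12400 to 20281.

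At single insertions, few MERVL copies were called. Of the 1114 tested, 14 (1.26%) passed an adjusted p of 0.05 in edgeR's quasi-likelihood test, 12 of them lower in LOF (1.08%) and 2 higher (0.180%), against 15.3% of all 59208 genes and insertions tested, of which 14.6% were lower and 0.76% higher. At an unadjusted p under 0.05 there were 49 MERVL insertions, 44 lower and 5 higher. Among all 59208 features 16618 had such a p, 15069 lower and 1549 higher. The 14 were 8 lower and 2 higher MERVL-int and 4 lower MERVL_2A-int. Of these, 4 (2 lower and both higher) had no read in 1 group. They met the detection rule only through the group where they were high, which conditions their calls on the difference. The other 10 were all lower, but some, named here for this reason, are not free of it. MERVL-int_dup840 had a read in 8 CONTROL and 2 LOF embryos, _dup139 in 6 and 1, and _dup2269 in 6 and 3. These copies met the rule, which asks for 5 embryos, through CONTROL alone. MERVL_2A-int_dup2696 and _dup263, with 4 CONTROL embryos and 1 LOF embryo each, met it mostly through CONTROL. The median log2 fold change was -0.18 over the MERVL insertions, with 63.5% below 0, against -0.69 over all features, with 68.6% below 0. It was -0.17 over MERVL-int and -0.49 over MERVL_2A-int, of which 52 of 68 (76.5%) were below 0. No MERVL insertion had all LOF embryos below, or all above, every CONTROL embryo, whereas 2.71% of all features had all LOF embryos below and 0.00338% all above. With TMM scaling 8 insertions were called, 7 higher and 1 lower, beside 2.64% higher and 6.76% lower among all features, and with DESeq2's size factors 9, 8 higher and 1 lower, beside 3.57% higher and 6.94% lower. The median turned to 0.36 and 0.39, so that the balance of higher and lower calls follows the scale. Leaving out CONTROL embryo 6 alone brought the calls down to 4, and leaving out CONTROL embryo 1, 3, 5 or 10 or LOF embryo 7, 9 or 11 to between 7 and 9. In these fits 13.2% to 14% of all features were called.

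The calls fell on copies below the highest abundance, sparsely read ones among them. The 14 insertions had between 0.278 and 35.9 mean reads per embryo, with a median of 19 reads in total over the 18 embryos. This median includes the 4 copies with no read in 1 group. Only 1 of the 14 was among the 100 highest copies. Among the 55 insertions with 50 or more mean reads none was called, while 14.3% of 1280 other insertions at this abundance were called lower and 2.03% higher. The median log2 fold change there was -0.077 for MERVL and 0.0024 for the others, the 1 abundance class where the MERVL median was the lower of the pair. Among the 252 with 15 to 50 mean reads 4 were called lower (1.59%), against 15.9% of 2979 others. At 5 to 15 mean reads 1 of 324 was called lower (0.309%, against 15.3% of others), and at 2 to 5 mean reads 1 of 198 (0.505%, against 12.7%). Under 2 mean reads 6 of 285 were called lower (2.11%, against 9.99% of others) and 2 higher, the 4 with no read in 1 group being among these. Thus at every abundance the share of MERVL insertions called lower was under that of other insertions.

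**Figure D2:**
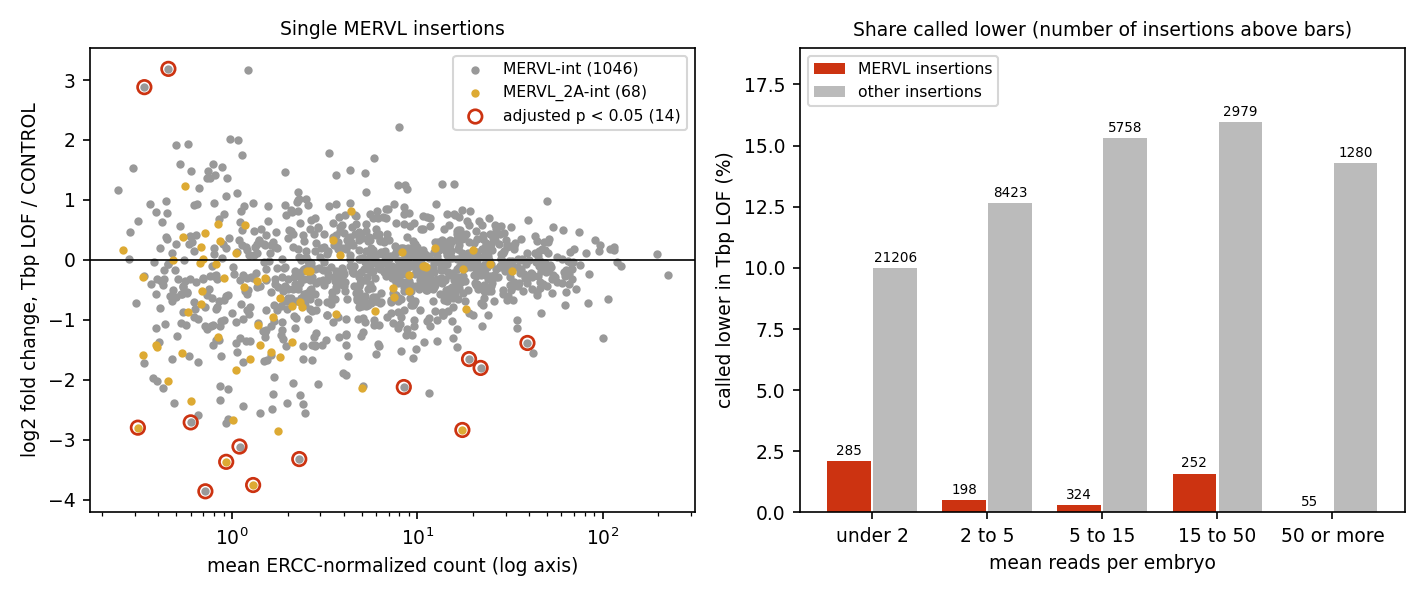
Left, log2 fold change (Tbp LOF over CONTROL) of each of the 1114 MERVL insertions against its mean ERCC-normalised count on a log axis, with MERVL-int in grey, MERVL_2A-int in yellow and the 14 called insertions circled. Right, the percentage of insertions called lower in LOF by mean reads per embryo, with the number of insertions above each bar, where MERVL insertions reach at most 2.11% and other insertions 9.99% to 15.9%.

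The 10 highest copies, all MERVL-int, had no call, with log2 fold changes from -1.31 to 0.25. For the first-ranked, MERVL-int_dup2318, the normalised count ran from 82.8 to 444 (median 164) in LOF and from 179 to 329 (median 237) in CONTROL, a log2 fold change of -0.25 (standard error 0.32, adjusted p = 0.673). For the next, MERVL-int_dup1872, it ran from 45.2 to 470 (median 150) in LOF and from 113 to 357 (median 180) in CONTROL, a log2 fold change of 0.10 (standard error 0.39, adjusted p = 0.906). In both, the LOF embryos spread below and above the CONTROL embryos, as for the summed reads. The furthest from 0 among the 10 was MERVL-int_dup2090, at 2.93 to 163 (median 60.3) in LOF and 78.5 to 193 (median 142) in CONTROL. Its log2 fold change was -1.31 (standard error 0.52, adjusted p = 0.0867), with 8 of 9 LOF embryos under the median of CONTROL. The remaining copies of the 10 were MERVL-int_dup1908, _dup178, _dup717, _dup1864, _dup2118, _dup1111 and _dup2060, with log2 fold changes between -0.65 and 0.25 and adjusted p values from 0.341 to 0.974. These 10 copies together took 9.28% ± 0.839 (SD, n = 9) of the MERVL reads of a LOF embryo and 9.09% ± 0.503 (SD, n = 9) of a CONTROL embryo (0.188 percentage points higher in LOF, p = 0.574 in a two-sided exact permutation test).

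The call with the smallest p was MERVL_2A-int_dup18. Its normalised count ran from 0.483 to 7.94 (median 4.59) in LOF and from 2.71 to 94.2 (median 29.9) in CONTROL, with a log2 fold change of -2.84 (standard error 0.62, adjusted p = 0.00326). All 9 LOF embryos were below the CONTROL median, and the groups overlapped through the lowest CONTROL embryo. It was called in all 27 alternative fits that tested it, leaving out each embryo in turn among them. Next by p were MERVL-int_dup245, with 9 reads in 5 CONTROL embryos and none in LOF, and MERVL-int_dup840, with reads in 8 CONTROL and 2 LOF embryos. MERVL_2A-int_dup3506 had 5 reads in 5 CONTROL embryos and none in LOF, and MERVL_2A-int_dup2696 had reads in 4 CONTROL embryos and 1 LOF embryo. Both higher insertions were as sparse: MERVL-int_dup338 had 8 reads in 7 LOF embryos and none in CONTROL, and MERVL-int_dup1616 had 8 reads in 5 LOF embryos and none in CONTROL. A read in 5 embryos is the least the detection rule allows, so the 4 copies with an empty group were tested only because of their reads in the other. MERVL-int_dup840 met the rule through CONTROL alone and MERVL_2A-int_dup2696 mostly through CONTROL. No p is given for any of these copies. These calls varied with the processing: _dup245 was called in 17 of 22 alternative fits that tested it, _dup840 in 20 of 27, _dup3506 in 13 of 21, _dup2696 in 16 of 22, _dup338 in 20 of 27 and _dup1616 in 8 of 22, the last in 4 of 13 fits with 1 embryo left out. Copies _dup245, _dup3506, _dup2696 and _dup1616 had a read in only 5 embryos. Leaving out any of those embryos put the copy below the detection rule, and it was then not tested. Its counts of fits therefore cannot show how far a call rests on these embryos. A count of 0 over a group allows up to 3 reads, so the absences in the 4 copies with an empty group are of a few reads. The fitted fold changes of the copies with an empty group are not given. The median of -0.18 over all MERVL insertions was the same with the 4 set at that bound. The next 3 by p in the higher direction did not pass. MERVL-int_dup1107 had 20 reads, of which 1 was in CONTROL and 8 in LOF embryo 8. It had a read in 5 LOF embryos and so met the detection rule through LOF alone, and no p is given for it. Its fold change rests on the 1 CONTROL read and is not given. MERVL-int_dup2312 and _dup171 had log2 fold changes of 2.21 and 1.70 (adjusted p = 0.104 and 0.112). Of these, MERVL-int_dup171 had all 9 LOF embryos above the CONTROL median, at 4.10 to 15.9 (median 9.52) against 0 to 5.19 (median 3.39). The 1 called copy among the 100 highest, chosen for mention after its values were seen, was MERVL-int_dup1627, at 4.36 to 57.2 (median 18.4) in LOF and 12.2 to 109 (median 57.3) in CONTROL (log2 fold change -1.39, standard error 0.48, adjusted p = 0.0481), and it was called in 7 of 28 alternative fits.

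**Figure D3:**
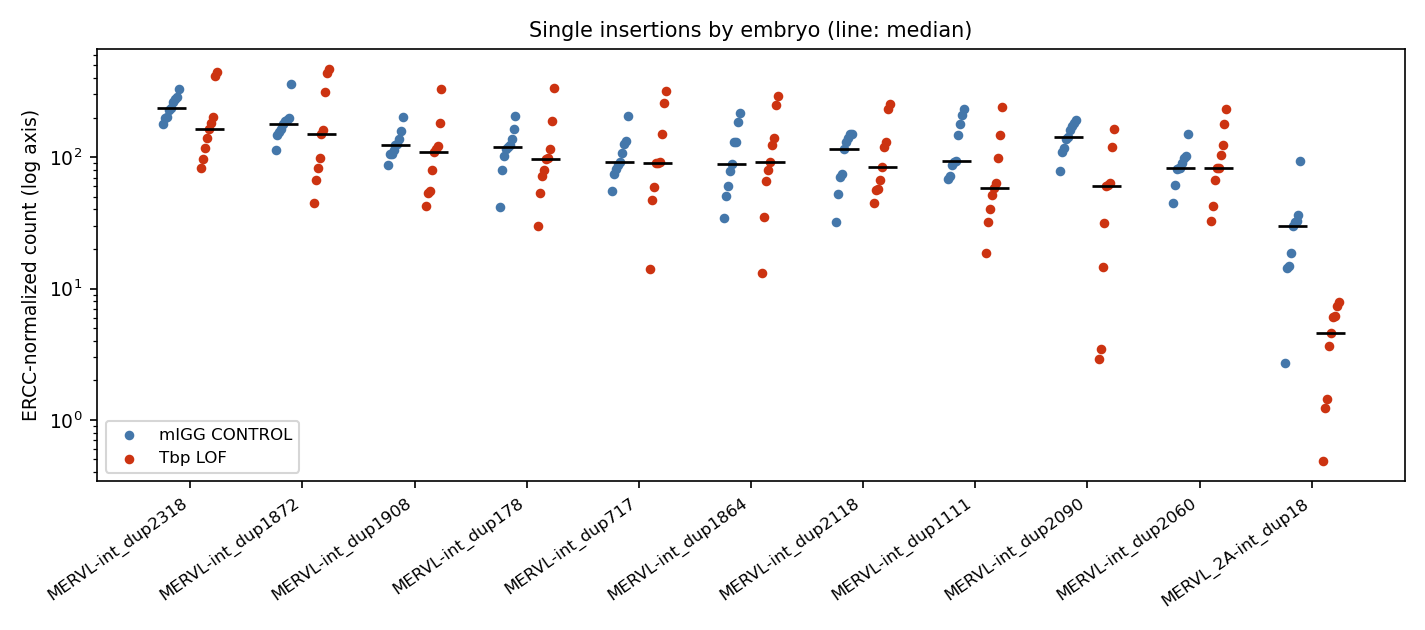
ERCC-normalised count on a log axis of the 10 MERVL insertions with the highest mean and of MERVL_2A-int_dup18 in each of 9 mIGG CONTROL (blue) and 9 Tbp LOF (red) embryos, with lines at the medians. In the 10 highest the LOF points overlap the CONTROL points on a wider range, whereas for MERVL_2A-int_dup18 the LOF embryos, at 0.483 to 7.94, lie below 8 of the 9 CONTROL embryos.

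The 3 MERVL_2A-int copies with the highest mean were not called. MERVL_2A-int_dup3003 stood at 12.6 to 77.8 (median 30.3) in LOF and 22.4 to 54.9 (median 28.2) in CONTROL, with a log2 fold change of -0.18 (standard error 0.41, adjusted p = 0.827). MERVL_2A-int_dup2580 and MERVL_2A-int_dup1991 had log2 fold changes of -0.06 and 0.17 (adjusted p = 0.964 and 0.9001). Within an embryo, MERVL_2A-int reads summed over copies were fewer relative to MERVL-int in LOF, a difference that rested in part on MERVL_2A-int_dup18. There were 1.44 to 2.26 MERVL_2A-int reads per 100 MERVL-int reads in LOF (median 1.77) and 1.85 to 2.72 in CONTROL (median 2.27). The ratio was 0.788-fold in LOF (log2 difference -0.34, two-sided exact permutation test over 48620 arrangements, p = 0.0014, adjusted over 4 ratios 0.0028). All 9 LOF embryos were below the CONTROL median, 5 of them below every CONTROL embryo. MERVL_2A-int_dup18 held 11.4% of the MERVL_2A-int reads in CONTROL and 1.80% in LOF. Without this copy, an alternative chosen after seeing the data, the ratio was 1.43 to 2.25 in LOF (median 1.76) and 1.61 to 2.61 in CONTROL (median 2.06), 0.855-fold in LOF, and its adjusted p no longer passed (log2 difference -0.23, two-sided exact permutation test, p = 0.0481, adjusted 0.0641). Then 8 LOF embryos were below the CONTROL median and 2 below every CONTROL embryo. This ratio does not depend on the scaling.

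Ratios within an embryo also set the MERVL internal reads against other transcripts. ORR1A0 and ORR1A1 are LTRs of the MaLR elements, non-autonomous relatives of MERVL in the ERVL class. Per read of these LTRs there were 1.41 to 2.97 MERVL reads in LOF (median 2.15) and 0.5002 to 1.05 in CONTROL (median 0.676). The groups did not overlap, all 9 LOF embryos being above all CONTROL embryos, and the ratio was 3.05-fold in LOF (log2 difference 1.61, two-sided exact permutation test, p = 4.11e-05, the smallest the arrangements can give, adjusted 0.000165). The family counts of ORR1A0 and ORR1A1 themselves were lower in LOF, by log2 fold changes of -1.59 (standard error 0.34, adjusted p = 0.000173) and -2.20 (standard error 0.33, adjusted p = 6.15e-07), and also with TMM scaling (-0.87 and -1.45, adjusted p = 0.00846 and 4.41e-05). A ratio shows that these transcripts and MERVL changed unequally, not that MERVL was constant.

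Against its own LTR, reads on the MERVL internal region were fewer in LOF. Only reads carrying the transcript 5′ end were counted. The ratio to the LTR is thus one of such reads and does not measure amounts of internal and LTR RNA. Per MT2_Mm read there were 0.133 to 0.438 MERVL reads in LOF (median 0.232) and 0.181 to 0.415 in CONTROL (median 0.353), the ratio being 0.670-fold in LOF (log2 difference -0.58, two-sided exact permutation test, p = 0.0199, adjusted 0.0265). The groups overlapped, although 8 of 9 LOF embryos stood under the median of CONTROL. The adjusted p rose to 0.0514 without LOF embryo 2 and to 0.0503 without LOF embryo 9. The MT2_Mm family count had a log2 fold change of 0.30 (standard error 0.36, adjusted p = 0.584), and with TMM scaling it was called higher (1.04, adjusted p = 0.00804). MT2_Mm reads come from solo LTRs as well as from full elements, and their part in the ratio was not tested. Per 100 gene reads there were 0.539 to 2.27 MERVL reads in LOF (median 1.15) and 0.727 to 1.32 in CONTROL (median 0.914), with LOF embryos on both sides of CONTROL (log2 difference 0.22, two-sided exact permutation test, p = 0.418, adjusted 0.418).

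**Figure D4:**
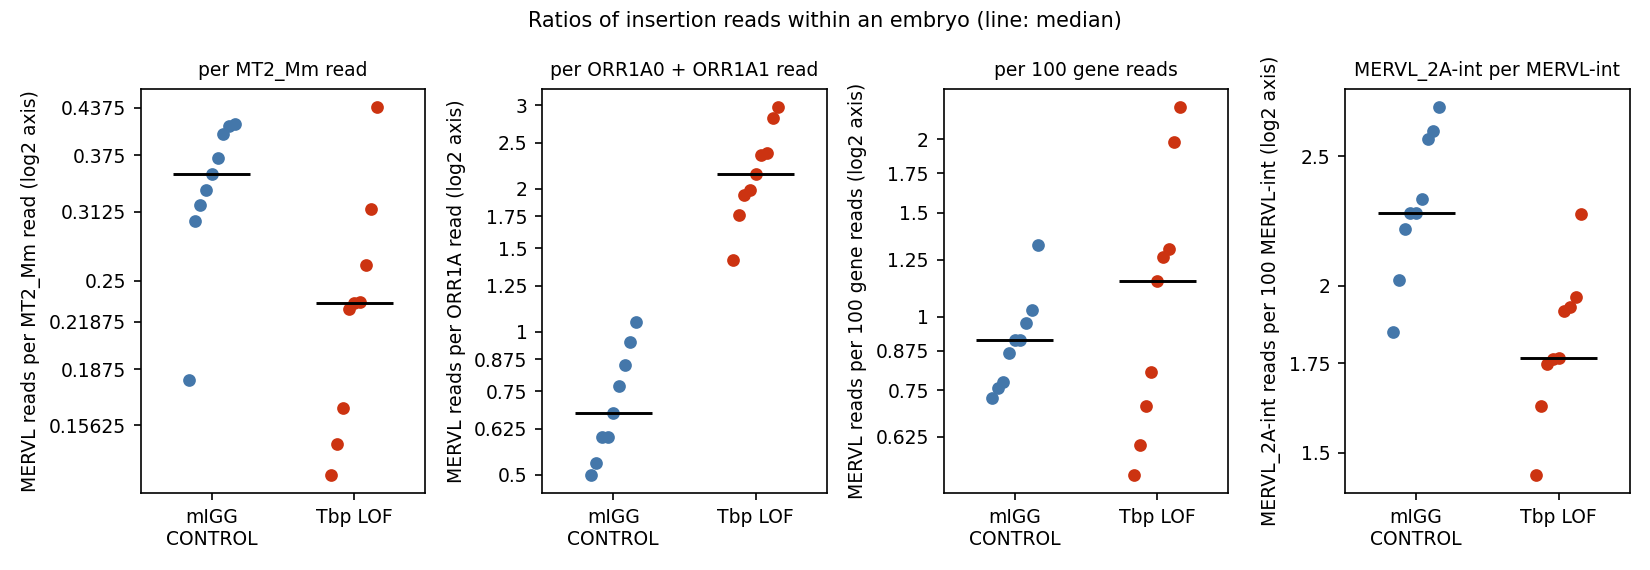
MERVL insertion reads per MT2_Mm read, per ORR1A0 and ORR1A1 read and per 100 gene reads, and MERVL_2A-int per 100 MERVL-int reads, in each embryo (9 per group, line at the median, log2 axes). All Tbp LOF embryos lie above all CONTROL embryos per ORR1A read (1.41 to 2.97 against 0.5002 to 1.05), and all LOF embryos lie below the CONTROL median for MERVL_2A-int.

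At equal depth slightly fewer copies held counted reads in LOF. How reads matching several copies were shared is not known, and its part in this was not tested. When each embryo's MERVL reads were thinned to 6145, the lowest total, the expected number of insertions with a read was 787 ± 20.5 in LOF and 807 ± 16.1 in CONTROL (SD, n = 9 each), 19.8 fewer in LOF (two-sided exact permutation test, p = 0.0325). Without thinning the numbers with a read were 785 to 989 (median 905) and 842 to 1013 (median 892). The p rose above 0.05, to between 0.0529 and 0.0646, without any single one of CONTROL embryos 3, 4, 5 and 6 or LOF embryos 7, 9 and 11, and at 1000 reads it was 0.0907. Over MERVL-int alone the p was also above 0.05, as given under the dependence on processing.

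Some annotated genes carry MERVL internal sequence and were counted as genes. The primer sites were searched after the files were at hand. Of the 18 genes found by them outside chromosome 18, 14 had rows in the gene counts and all 14 were tested. None was lower and 1 was higher in LOF, with a median log2 fold change of 0.35 and 4 below 0, beside 29.7% lower and 1.34% higher among all genes and families. With TMM scaling 6 were higher and none lower, beside 12.8% higher and 12.7% lower among all. The 1 higher gene, Gm47404 (a sense_intronic transcript at chr13:10175784-10180807, minus strand), stood at 4.59 to 47.6 (median 17.6) in LOF and 1.43 to 16.3 (median 6.94) in CONTROL, a log2 fold change of 1.23 (standard error 0.47, adjusted p = 0.0393), and was chosen for mention after its values were seen. Gm48422, whose sequence is shown above, stood at 15.97 to 132 (median 54.0) in LOF and 3.73 to 144 (median 18.1) in CONTROL (log2 fold change 0.42, adjusted p = 0.513), and with TMM scaling it was called higher (1.34, adjusted p = 0.0129). Summed over the 14 genes the normalised count was 93.7 to 710 (median 247) in LOF and 141 to 324 (median 217) in CONTROL, the wider range being again that of LOF. These rows are uncertain, since reads may match several copies, which was not tested, and the sources used here do not say how a read in both a gene and an insertion was assigned.

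Known regulators of MERVL were measured in the same embryos as genes. Of 20 activators all were tested, and 7 were lower, none was higher and 13 were not called in LOF, with a median log2 fold change of -0.39. Beside this, 29.7% of all genes and families were called lower, and 52.7% of 7700 genes in the fit with edgeR's expression filter. With TMM scaling 5 activators were lower and 5 higher, beside 12.7% lower and 12.8% higher among all genes and families. The activators lower with the smallest p were Dppa4 at -2.20 (standard error 0.33, adjusted p = 4.93e-07), Dppa2 at -2.32 (standard error 0.35, adjusted p = 5.32e-07) and Tead4 at -3.28 (standard error 0.53, adjusted p = 2.22e-06), all in log2 fold change. DPPA2 and DPPA4 are paired chromatin-binding factors upstream of Dux, and TEAD4 is a transcription factor of the Hippo pathway. Dppa4 ran from 25.6 to 168 (median 116) in LOF and from 229 to 732 (median 504) in CONTROL, with no overlap. In the other direction Obox1 and Obox5, homeobox factors, had log2 fold changes of 0.81 (standard error 0.39, adjusted p = 0.113) and 0.36 (standard error 0.33, adjusted p = 0.463) and did not pass, and Gata2 had 0.74 (adjusted p = 0.654). With TMM scaling Obox1 and Obox5 were called higher, at 1.63 (adjusted p = 0.000367) and 1.16 (adjusted p = 0.00112). The other Obox genes listed, named after their values were seen, did not all go this way. Obox6 was lower, at -1.98 (adjusted p = 6.94e-06), and also with TMM scaling (-1.24, adjusted p = 0.00142). Obox2, Obox3 and Obox7 were not called, and with TMM scaling only Obox2 of these was called, higher (1.07, adjusted p = 0.0177). Of 37 repressors 36 were tested, 19 were lower, none was higher and 17 were not called, with a median log2 fold change of -0.93. Here too 29.7% of all genes and families were lower, and 52.7% of the 7700 genes kept by the expression filter. With TMM scaling 6 of the 36 were lower and 4 higher, beside 12.7% and 12.8%. Ncl (nucleolin) was lower by a log2 fold change of -2.30 (standard error 0.33, adjusted p = 1.64e-07), and Cbx3 (HP1γ, a reader of methylated histone H3) by -1.90 (standard error 0.33, adjusted p = 6.72e-06). Lin28a, an RNA-binding protein, had a log2 fold change of 0.26 and did not pass (adjusted p = 0.638), but was called higher with TMM scaling (1.02, adjusted p = 0.00502). The part of these regulators in the MERVL counts was not tested.

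The FOXJ3 embryos give the MERVL family counts in a second Trim-Away experiment, scaled by TMM and with library batch in the fit. MERVL-int ran from 10982 to 30544 (median 16504) in the 16 FOXJ3 LOF embryos kept (1 had under 500000 reads) and from 11038 to 32865 (median 19398) in 13 CONTROL embryos. The groups overlapped almost entirely, with a log2 fold change of -0.14 (standard error 0.17, adjusted p = 0.962). MERVL_2A-int ran from 236 to 592 (median 413) and from 195 to 557 (median 466), with -0.06 (standard error 0.15, adjusted p = 0.985). Neither passed, in a test where 2 of 19518 features (0.0102%) did. Within batch 1 the log2 fold changes were -0.23 for MERVL-int and -0.16 for MERVL_2A-int, and within batch 2 they were -0.06 and 0.04. The TBP and FOXJ3 experiments were scaled separately, and their levels are not compared.

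**Figure D5:**
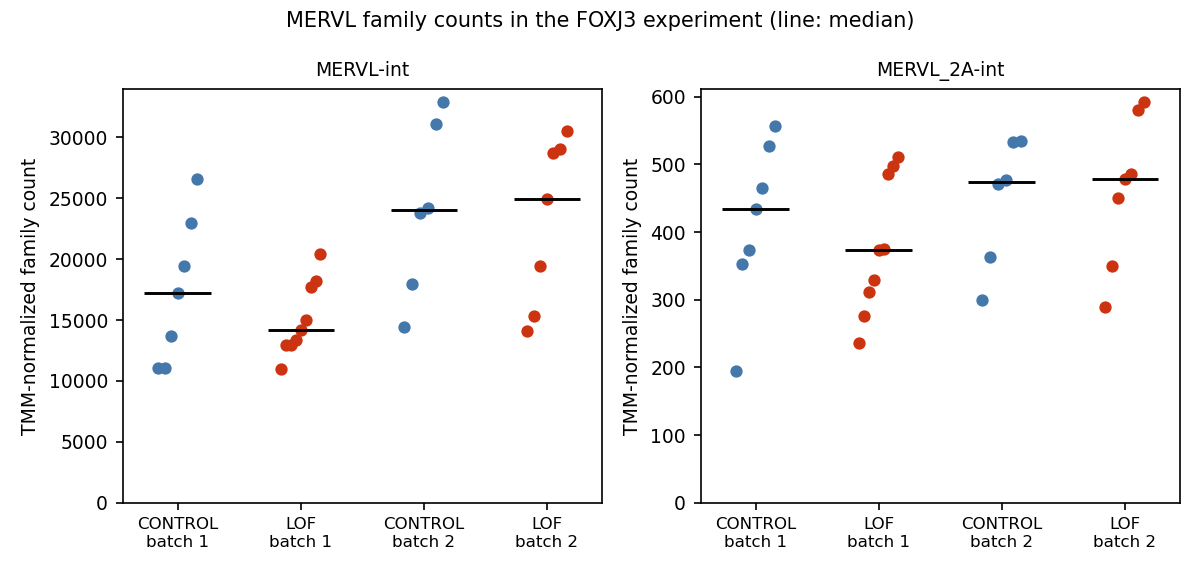
TMM-normalised family counts of MERVL-int and MERVL_2A-int in each FOXJ3 LOF (red, n = 16) and CONTROL (blue, n = 13) embryo by library batch, with lines at the medians. The groups overlap in both batches, over 10982 to 30544 in LOF and 11038 to 32865 in CONTROL for MERVL-int.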

How the data were processed

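Single late 2-cell embryos were sequenced by Smart-seq+5', and only reads carrying the transcript 5′ end were kept. The authors aligned them with STAR 2.7.11a to GRCm38 and deposited unnormalised estimated counts, in whole numbers, per gene and TE family (TEcount) and per single insertion (TElocal), with the gencode annotation. The sources used here do not state the strand setting of this counting or how reads matching several copies were shared. From these counts, embryos with at least 500000 counted reads were kept, features with at least 1 read in 25% of embryos were fitted with edgeR 4.0.16 (R 4.3.3) without covariates, with size factors from 42 ERCC transcripts for TBP and with TMM and library batch for FOXJ3, and p-values were adjusted by Benjamini-Hochberg over all features. DESeq2 1.42.0, other scalings and filters, single embryos left out and an embryo-number block were alternatives. Ratios were compared by exact permutation tests computed with numpy 2.4.6 and checked against scipy 1.17.1. Scripts were tested on simulated data. Groups follow the labels, with 9 Tbp LOF and 10 mIGG CONTROL embryos, whereas the study's methods give 10 and 9. Per the labels, TBP embryos came from 3 biological replicates, not assigned to single embryos, so p-values measure spread between embryos only. Insertions named were the 10 with the highest mean, the 5 with the smallest p per direction and the 3 highest MERVL_2A-int, and regulators named were those with the smallest p, at most 5 per direction, of which 1 is not reported here. The members and lists were chosen with earlier results of these data known.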

Additional observations from a re-analysis of the deposited data

Results flagged for a closer look

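In 11 of 66 groups of 9 values examined, the highest or lowest embryo stood apart from the others of its group by Dixon's criterion. This criterion is set so that about 1 of 20 groups of independent, normally distributed values would meet it. The groups here share embryos, and in some of them most embryos had no read, so 11 of 66 does not measure an excess. The gap to the nearest embryo, as a share of the group's range, is given for each of the 11. Among summed measures, CONTROL embryo 4 was high in RPM (0.5531, 8648 against 7115 for the nearest) and in MERVL reads per 100 gene reads (0.4988, 1.32 against 1.02), and CONTROL embryo 2 was low in MERVL reads per MT2_Mm read (0.5222, 0.181 against 0.303). The other 8 groups were of single insertions. A CONTROL embryo was high for MERVL-int_dup1872 (0.6516), MERVL_2A-int_dup18 (0.6313, 94.2 against 36.4) and MERVL-int_dup1107 (1.0, where it was the 1 CONTROL embryo with a read). A LOF embryo was high for MERVL-int_dup1908 (0.5185), MERVL-int_dup840 (0.7898), MERVL_2A-int_dup2696 (1.0, where it was the 1 LOF embryo with a read), MERVL-int_dup1107 (0.7288) and MERVL_2A-int_dup3003 (0.6369).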

How the results depend on the processing

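Of the alternatives tried on the insertions called (14), the count was 8 with TMM scaling (0.718%, beside 9.4% of all features) and 9 with DESeq2's size factors (0.808%, beside 10.5%). It was 5 of 331 tested with edgeR's expression filter (1.51%, beside 39.1%) and 7 of 1874 with no filter (0.374%, beside 4.1%). It was 6 without the 3 deepest libraries (0.527%, beside 11.8%) and 6 when scaled to the MERVL reads (0.539%, beside 11.2%), both chosen after seeing the data. In DESeq2's Wald test it was 20 (1.8%, beside 15.7%). Only 9 of the 14 had an adjusted p there, and 7 of these were called. With 1 embryo left out the count was 4 (0.364%, beside 13.7%) to 17 (1.55%, beside 15.9%). The median log2 fold change over the MERVL insertions turned to 0.36 (TMM) and 0.39 (DESeq2's size factors) and was -0.42 to -0.052 with 1 embryo left out. For the 7 embryo numbers that both groups share, correlations of same-numbered embryos over all features were -0.089 to 0.144. Here 1 of 7 correlated best with its own number. Over the MERVL insertions the correlations were -0.041 to 0.130, and 2 of 7 correlated best with their own number. The labels do not assign embryos to collections, so these values do not decide whether the numbers pair the samples. With the embryo number as a replicate block 5 insertions were called (0.443%, beside 6.89% of all features), and MERVL-int had a log2 fold change of -0.11 and MERVL_2A-int -0.36. The same embryos without the block gave 1 call (0.0886%, beside 6.35%), a median of 0.14, and 0.14 for the MERVL-int family. In the FOXJ3 data the replicate block gave -0.16 for MERVL-int and -0.05 for MERVL_2A-int.

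The family changes turned to 0.58 (MERVL-int) and 0.21 (MERVL_2A-int) with TMM and 0.58 and 0.22 with DESeq2's size factors, and for FOXJ3 to 0.089 and 0.16 with ERCC size factors and to 0.044 for MERVL_2A-int in batch 2 alone, none passing the test. The log2 ratio of MERVL_2A-int to MERVL-int was -0.23 without MERVL_2A-int_dup18, chosen after seeing the data, and no longer passed. With 1 embryo left out, the log2 ratio per MT2_Mm was -0.70 to -0.48 and the insertions detected at equal depth differed by -23.8 to -14.3. The latter difference was -14.4 (exact permutation p = 0.0812) over MERVL-int alone and -10.1 at 1000 reads. Sparse reads limit single copies, with a median of 6.36 mean reads. The cause of these changes was not tested. Named copies whose direction turned had small changes. With TMM and DESeq2's size factors MERVL-int_dup2318 gave 0.32 and 0.35, _dup1908 0.49 and 0.55, _dup178 0.47 and 0.52, MERVL_2A-int_dup3003 0.44 and 0.45, and _dup2580 0.50 and 0.49. Scaled to MERVL reads, MERVL-int_dup1908 gave 0.091, _dup178 0.13 and MERVL_2A-int_dup3003 0.15. Without the 3 deepest libraries MERVL-int_dup1908 gave 0.012 and _dup178 0.11, with all 19 embryos _dup178 gave 0.020, with the replicate block _dup178 0.093, MERVL_2A-int_dup3003 0.051 and _dup1991 -0.088, and on the same embryos without the block MERVL-int_dup2318 0.034, _dup178 0.23, MERVL_2A-int_dup3003 0.18 and _dup2580 0.11. With 1 embryo left out the ranges were -0.15 to 0.27 (MERVL-int_dup1872), -0.44 to 0.015 (_dup1908), -0.39 to 0.11 (_dup178), -0.084 to 0.39 (_dup717), -0.12 to 0.35 (_dup1864), -0.039 to 0.29 (_dup2118), -0.43 to 0.10 (MERVL_2A-int_dup2580) and -0.25 to 0.34 (_dup1991).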

Other observations

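The spread of MERVL reads between Tbp LOF embryos was wider than between CONTROL embryos. The standard deviation of log2 normalised counts over the MERVL insertions was 0.99 in LOF and 0.22 in CONTROL, and of log2 RPM 0.76 and 0.17 (n = 9 each). The mean absolute deviation from the group's median was 0.603 higher on the log2 scale in LOF for normalised counts (two-sided exact permutation test, p = 0.0118, adjusted over 4 measures 0.0237) and 0.529 higher for RPM (p = 0.00313, adjusted 0.0125). This test was chosen after the values were seen. For MT2_Mm the standard deviations were 0.76 and 0.38 (exact permutation p = 0.0885, adjusted 0.0885), and for ORR1A0 and ORR1A1 together 0.87 and 0.35 (p = 0.0509, adjusted 0.0678). In RPM, LOF embryos 1, 2, 9 and 11 stood at 4894, 4782, 4214 and 4190, and LOF embryos 5, 6, 7, 8 and 10 at 9636, 16432, 8602, 13788 and 9791, with the CONTROL embryos, at 5876 to 8648, between all but 1 of them. Which collection an embryo came from is not known, and its part in this spread was not tested.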
